A study of Mus musculus with 12 samples.

Results

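The ISG15 system attaches a small ubiquitin-like protein to other proteins and takes it off again, and 6 of its genes were followed here in injured mouse liver. The genes are Isg15, the modifier itself, Uba7, its activating (E1) enzyme, Ube2l6, its conjugating (E2) enzyme, Herc6 and Trim25, ligases (E3), and Usp18, the protease that removes it. They were picked by symbol for their role in the system, with earlier results of these data known, and all 6 were found among the 23574 genes and assembled loci of the deposited tables. All 6 also passed the filter on low counts, as did 14275 entries in total.

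The study sequenced liver RNA of mice, C57BL/6 and wild-type, after concanavalin A (Con A), a lectin from jack beans that drives T cell activation and liver injury. Some mice also received mesenchymal stem cells (MSC), and livers were taken at 6 h or 12 h. This gives 4 groups of 3 libraries, named Con A or Con A + MSC, each with its time. Every group received Con A, so no value stands for an uninjured liver, and the labels do not give the species of the MSC. The series text speaks of hepatocyte RNA and the sample labels of liver tissue. All 9 hepatocyte marker genes were detected in every library, beside low levels of markers of immune, endothelial and stellate cells, and the values are described as whole-liver RNA. Nothing in the labels says that the replicates are separate mice, so each p-value reflects only how these libraries vary, which may be technical.

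Interferons induce ISG15 and its enzymes through the transcription factor complex ISGF3, which binds a DNA element called the ISRE. UBA7 activates ISG15 and UBE2L6 carries it, and in mice HERC6 is the main ligase that joins it to target proteins. TRIM25 is best known for adding ubiquitin to the RNA sensor RIG-I and has also been reported as an ISG15 ligase. USP18 cleaves ISG15 from its targets and, apart from that activity, binds the type I interferon receptor and dampens its signal.

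Promoter sequence is shown for the 2 members in which an ISRE-like motif was found, since the levels described further on are those of interferon-induced genes. RefSeq entries (GRCm38.p6) were at hand for 5 of the 6 members, with Usp18 as the exception, and 250 bases before the start were searched on both strands. The motifs were the ISRE core (TTTC, 2 bases of any kind, TTTC), its shorter form TTTCNNTTT, which every full core contains, and the GAS element TTCNNNGAA. Of 32851 promoters of that length, 2.98% hold the ISRE core, 9.37% the shorter form and 7.02% the GAS element. The sequences follow 5′ to 3′ on the strand of the gene, with the motif in capitals.
Isg15 (chr4:156200819-156200938, minus strand, the 120 bases before the start): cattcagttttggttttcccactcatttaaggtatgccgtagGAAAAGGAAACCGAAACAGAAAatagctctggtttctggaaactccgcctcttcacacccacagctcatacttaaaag
Uba7 (chr9:107975525-107975554, plus strand, bases 42 to 13 before the start): accaactcagtctagTTTCACTTTtggttt
In Isg15 the capitals are 3 overlapping copies of the core, read on the opposite strand, from base 78 to base 57 before the start. In Uba7 they are 1 copy of the shorter form on the strand of the gene, from base 27 to base 19 before the RefSeq start, a stretch that lies inside the gene as GENCODE draws it. These letters were not found in the windows of Ube2l6, Herc6 and Trim25, and the GAS letters in none of the 5. A match of letters is a description of the sequence and not evidence of binding.

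All levels are given in CPM, the usual unit of counts relative to the size of the library, after TMM scaling, which sets the libraries to a common scale over most genes. Library totals lay between 29688137 and 36131512 counts, and 3 counts, the upper limit that a count of 0 allows at 95% confidence for counting error alone, were 0.0657 to 0.119 CPM. Every member lay far above that in every library. The library Con A 12 h replicate 1 stood apart from its group: over genes with at least 10 counts in every library, its chi-square per degree of freedom was 350.0 and 651.8 against the other 2 libraries of the group, and 177 to 243 against the Con A + MSC 12 h libraries. Its mitochondrial share of counts was 5.59%, against 17.3% and 24.9% in those 2, and the 12 h results are therefore also given without it. Changes are log2 ratios of fitted group levels with their standard error (SE), and the adjusted p is from edgeR's quasi-likelihood test with Benjamini-Hochberg adjustment over all genes tested. A gene is said to rise or fall only where that p was below 0.05.

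Isg15 and Usp18 RNA were lower at 6 h in livers with MSC than in livers with Con A alone, 6.25-fold and 4.91-fold. The other 4 members lay lower too but did not pass the test, and Ube2l6 differed least. In 6 of 6 members the 3 libraries with MSC all lay below the 3 without, against 8.34% of all genes tested. By the adjusted p, 2 of the 6 fell and none rose, against 0.0981% of all genes (14 of 14275) passing in either direction and 0.0771% lower. In bulk RNA, fewer cells that express a gene and less of its RNA per cell cannot be told apart.

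Isg15 stood at 312, 832 and 609.8 CPM in Con A 6 h replicates 1, 2 and 3, and at 114, 67.5 and 98.9 CPM in Con A + MSC 6 h. The lowest library without MSC was well above the highest with MSC. Its log2 change was -2.64 ± 0.37 (SE; n = 3 and 3; edgeR adjusted p = 0.0186), which is 6.25-fold lower. Usp18, the protease, stood at 242, 601 and 399 CPM without MSC and at 109, 57.6 and 86.5 CPM with MSC, and the groups again did not overlap. Its change was -2.29 ± 0.35 (n = 3 and 3; edgeR adjusted p = 0.0331), 4.91-fold lower. Both calls were lost when any 1 of the 6 libraries other than Con A 6 h replicate 1 was left out, with Isg15 between -2.82 and -2.29. Without Con A 6 h replicate 2 the changes were -2.29 (edgeR adjusted p = 0.0536) for Isg15 and -1.91 (0.0766) for Usp18, and with only the 2 groups compared in the fit the adjusted p were 0.0769 and 0.106.

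The E1 gene Uba7 stood at 57.1, 91.3 and 70.6 CPM without MSC and at 41.0, 23.3 and 33.8 CPM with MSC at 6 h. The groups did not overlap, but the change of -1.16 ± 0.23 missed the threshold (edgeR adjusted p = 0.0644). Ube2l6, the E2, stood at 146, 195 and 160.0 CPM without MSC and at 138, 136 and 135 CPM with MSC. The 3 libraries with MSC were almost equal and lay just under the lowest of the others, and the change was -0.29 ± 0.17 (edgeR adjusted p = 0.602). The ligase Herc6 stood at 132, 247 and 155 CPM against 112, 74.9 and 86.8 CPM, a change of -0.96 ± 0.28 (edgeR adjusted p = 0.195). Trim25, the other ligase, stood at 116, 148 and 127 CPM against 100.2, 65.1 and 70.3 CPM, a change of -0.73 ± 0.18 (edgeR adjusted p = 0.146). For both ligases the highest library with MSC was close below the lowest without. The count of members passing was 5 of 6 with DESeq2, all but Ube2l6, against 2.15% of all genes with that tool, and between 0 and 3 when single libraries were left out.

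**Figure D1:**
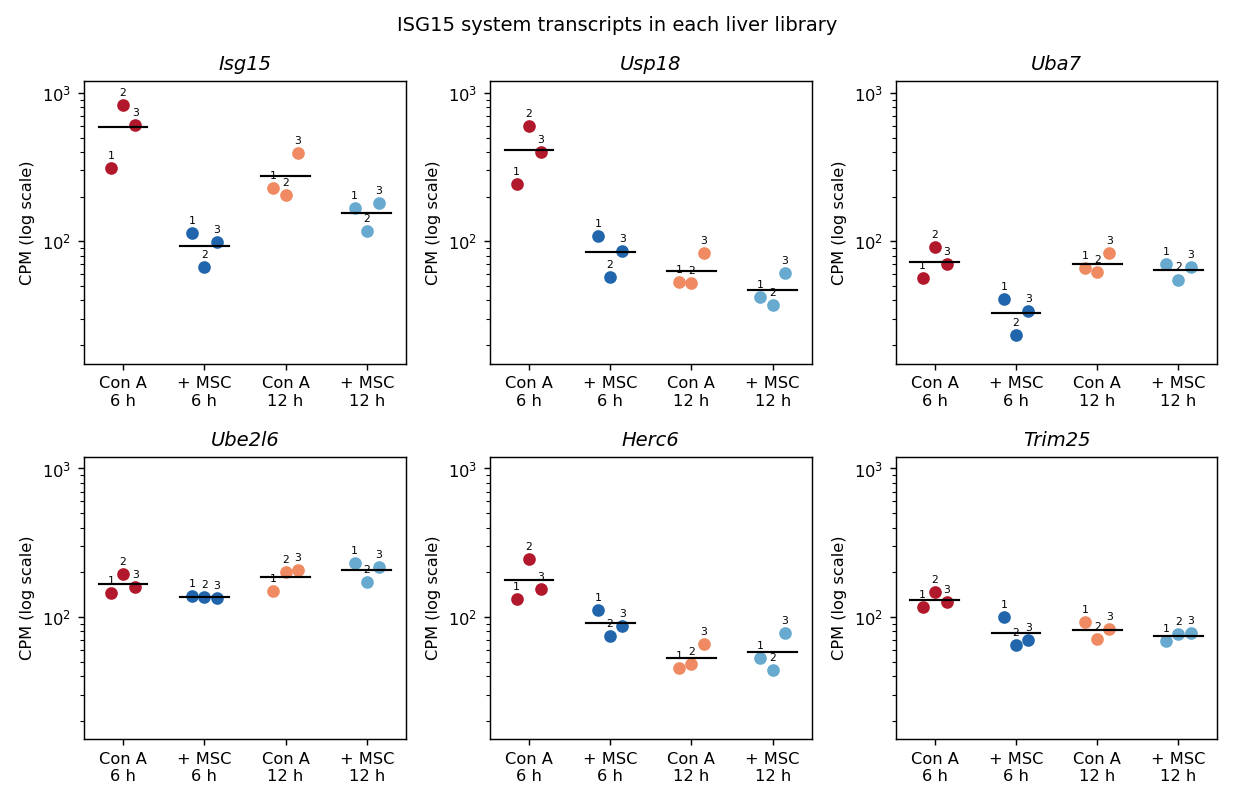
CPM of each member (log axis) in the 12 libraries by group; points are libraries numbered by replicate and bars are group means. Every member but Ube2l6 has its highest group mean in Con A 6 h, Uba7 only just so. Ube2l6 spans the narrowest range, and Con A 6 h replicate 2 is the highest of its group in all 6 panels.

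In each 6 h group 1 library was the highest for every member. Con A 6 h replicate 2 was the highest of its 3 libraries for 6 of 6 members, by 0.62 on the log2 scale above the group mean for Isg15, 0.63 for Usp18, 0.53 for Herc6, 0.35 for Uba7, 0.23 for Ube2l6 and 0.19 for Trim25. Con A + MSC 6 h replicate 1 was likewise the highest of its 3 for 6 of 6 members, by 0.42 for Usp18, 0.38 for Trim25, 0.36 for Uba7, 0.32 for Isg15 and for Herc6, and 0.015 for Ube2l6. Without it the MSC changes at 6 h were -2.82 for Isg15 and -2.53 for Usp18 (edgeR adjusted p = 0.073 for both). With the mean of each group subtracted, Isg15 and Usp18 still moved together over the 12 libraries (Pearson r = 0.956). So did Usp18 with Herc6 (0.942) and with Uba7 (0.915). Ube2l6 and Trim25 did not move with each other (-0.0694). With the remaining members Ube2l6 had 0.554 to 0.695 and Trim25 had 0.536 to 0.679. These correlations describe libraries that share their counts and scaling, and no p is given.

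At 12 h no member passed for MSC against no MSC, against 4.08% of all genes, and 1 member, Isg15, had groups that did not overlap (26.4% of all genes). By edgeR's unadjusted p below 0.05 the count was 1 of 6, against 22.0% of all genes, and by DESeq2 0. Isg15 stood at 228, 204 and 394 CPM in Con A 12 h and at 167, 117 and 181 CPM in Con A + MSC 12 h. Every library with MSC was below every library without, with a change of -0.83 ± 0.35 (n = 3 and 3; edgeR adjusted p = 0.191). Usp18 stood at 53.1, 52.6 and 83.8 CPM without MSC and at 42.4, 37.4 and 61.3 CPM with MSC, and these groups overlapped (change -0.43 ± 0.33, edgeR adjusted p = 0.486). Uba7 was at 66.3, 62.2 and 82.9 CPM against 69.8, 55.3 and 67.3 CPM, and Trim25 at 93.1, 70.8 and 83.0 CPM against 68.6, 77.4 and 78.0 CPM. Both differed by -0.14 (SE 0.22 and 0.18), smaller than the spread between libraries. Herc6 was at 45.1, 48.4 and 66.2 CPM without MSC and at 52.8, 44.0 and 78.2 CPM with MSC, a change of 0.13 ± 0.27. Ube2l6 was at 149, 201 and 208 CPM and at 229.9, 173 and 216 CPM, a change of 0.15 ± 0.17. The scaling matters for the smallest of these. By total counts alone the median of all genes shifted from 0.00352 to 0.26 on the log2 scale, and Uba7 and Trim25 then came out at 0.14 and 0.11. Without Con A 12 h replicate 1 again 0 of the 6 passed, with Isg15 at -0.96 (edgeR adjusted p = 0.15), Usp18 at -0.55, Uba7 at -0.18, Trim25 at -0.049, Herc6 at 0.017 and Ube2l6 at 0.0084.

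The difference of the MSC change between the times was tested in the same fit. It was 1.87 ± 0.48 for Usp18 (edgeR adjusted p = 0.0956), 1.82 ± 0.50 for Isg15 (0.108), 1.09 ± 0.39 for Herc6 (0.187), 1.02 ± 0.32 for Uba7 (0.141), 0.59 ± 0.26 for Trim25 (0.275) and 0.44 ± 0.25 for Ube2l6 (0.389). Positive values mean a less negative MSC change at 12 h than at 6 h. None of the 6 passed, against 0.126% of all genes, while 5 of 6 had an unadjusted p below 0.05, against 16.8% of all genes. DESeq2 passed 2 members, for which the 0.126% is no measure, since it is edgeR's and the share of all genes with DESeq2 is not given here. Without Con A 12 h replicate 1 the differences ran from 0.28 for Ube2l6 to 1.73 for Usp18 and 0 members passed. An MSC effect at 6 h that is absent at 12 h is therefore not shown for any single member.

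Between 6 h and 12 h without MSC, 4 of the 6 members fell: the protease Usp18, the ligases Herc6 and Trim25, and Isg15. The E1 gene Uba7 and the E2 gene Ube2l6 did not pass. No member rose. This comparison moved much of the transcriptome, with 49.2% of all genes passing and 24.8% lower, so a member's passing is common here. These values share the Con A 6 h libraries with the MSC comparison at 6 h, so both read the same high levels.

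Usp18 fell by 2.71 ± 0.35 on the log2 scale (n = 3 and 3; edgeR adjusted p = 9.13e-05), 6.56-fold, from a group mean of 414 ± 180.1 CPM (SD, n = 3) to 63.2 ± 17.8 CPM. Herc6 fell by 1.74 ± 0.28 (edgeR adjusted p = 0.000374), 3.34-fold, from 178 ± 61.2 CPM to 53.2 ± 11.4 CPM. In both, and in Trim25, every 12 h library was below every 6 h library, and such a lack of overlap held for 54.8% of all genes. Isg15 fell by 1.09 ± 0.35 (edgeR adjusted p = 0.0225), 2.12-fold, from 585 ± 261 CPM to 276 ± 103 CPM. Its groups overlapped, since Con A 12 h replicate 3 was above Con A 6 h replicate 1, and without Con A 6 h replicate 2 the change was -0.72 (edgeR adjusted p = 0.118). The call was also lost without Con A 6 h replicate 3 (0.0665), Con A 12 h replicate 1 (0.0817) or Con A 12 h replicate 2 (0.105). Trim25 fell by 0.66 ± 0.18 (edgeR adjusted p = 0.00975), 1.58-fold, from 130.1 ± 16.0 CPM to 82.3 ± 11.1 CPM, but by total-count scaling its change was -0.40 (edgeR adjusted p = 0.172), and without Con A 12 h replicate 2 it was -0.53 (0.0626). Uba7 was at 73.0 ± 17.2 CPM at 6 h and 70.5 ± 11.0 CPM at 12 h, a change of -0.05 ± 0.22. Ube2l6 was at 167 ± 25.3 CPM and 186 ± 32.2 CPM, a change of 0.16 ± 0.17. Without Con A 12 h replicate 1, 3 members fell (Usp18 -2.56, Herc6 -1.60 and Trim25 -0.72 on the log2 scale), while Uba7 was at 0.030 and Ube2l6 at 0.33.

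Between 6 h and 12 h with MSC, 2 of the 6 members, Uba7 and Ube2l6, rose and none fell, against 40.7% of all genes passing and 20.6% higher. Uba7, the E1, rose by 0.97 ± 0.23 (n = 3 and 3; edgeR adjusted p = 0.0048), to 1.96 times its 6 h level, from 32.7 ± 8.91 CPM to 64.1 ± 7.74 CPM. Ube2l6, the E2, rose by 0.60 ± 0.17 (edgeR adjusted p = 0.0159), to 1.51 times, from 136 ± 1.45 CPM to 207 ± 29.6 CPM. This call was lost without Con A + MSC 6 h replicate 3 (edgeR adjusted p = 0.0512) and without Con A + MSC 12 h replicate 1 (0.0564). For these and for Isg15 the times did not overlap, which is the case for 58.6% of all genes. Isg15 was at 93.5 ± 23.8 CPM at 6 h and 155 ± 33.5 CPM at 12 h, a change of 0.73 ± 0.35 (edgeR adjusted p = 0.113). Usp18 was at 84.4 ± 25.8 CPM and 47.0 ± 12.6 CPM (-0.84 ± 0.34, edgeR adjusted p = 0.0613), and Herc6 at 91.3 ± 19.0 CPM and 58.3 ± 17.8 CPM (-0.65 ± 0.28, 0.0781). Trim25 was at 78.5 ± 19.0 CPM and 74.7 ± 5.23 CPM, a change of -0.07 ± 0.18. How far these changes differ from those without MSC is the same quantity as the difference of the MSC change, which 0 members passed. Scaling shifted this comparison: by total counts the median of all genes shifted from 0.0553 to 0.592, 3 members rose with Isg15 as the third (1.27, edgeR adjusted p = 0.00877), and Trim25 came out at 0.48. By that scaling 40.6% of all genes rose.

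**Figure D2:**
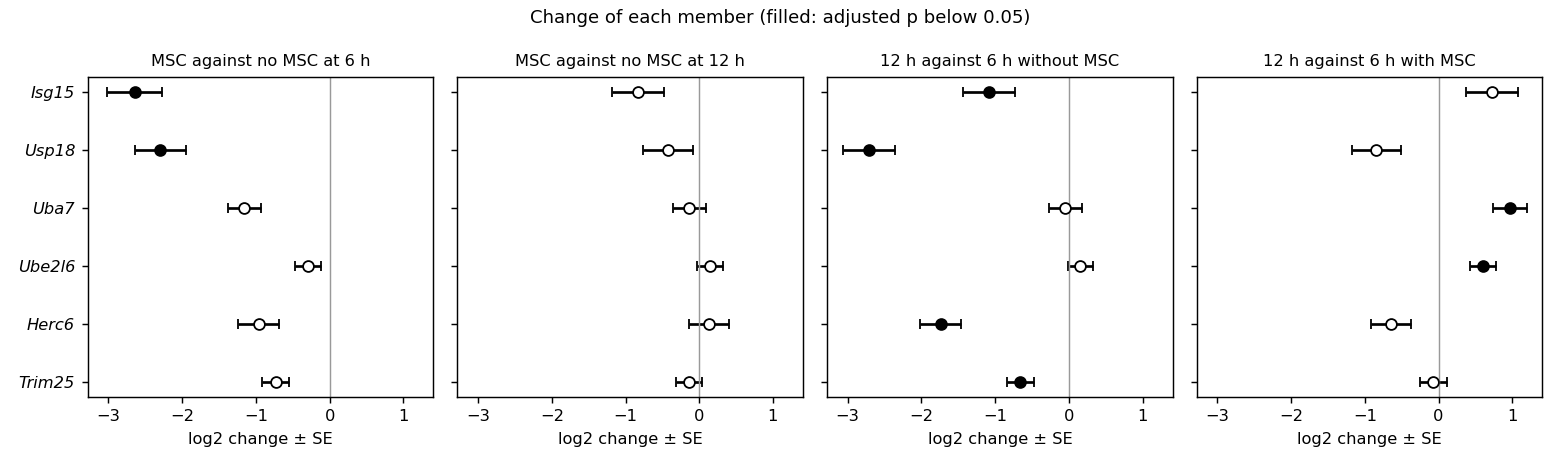
Log2 change of each member with its SE (horizontal bar) in 4 comparisons of 3 libraries with 3; filled points have an edgeR adjusted p below 0.05. At 6 h Isg15 (-2.64) and Usp18 (-2.29) lie farthest below 0 with MSC. Between the times Usp18, Herc6 and Trim25 lie below 0 in both panels, Trim25 only just so with MSC (-0.07).

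Ordered by group, the members follow more than 1 pattern. Isg15 was highest in Con A 6 h and next in Con A 12 h, which overlapped. It was lower in Con A + MSC 12 h and lowest in Con A + MSC 6 h, each without overlap with the group above. Usp18 and Herc6 were highest in Con A 6 h and next in Con A + MSC 6 h, with both 12 h groups lowest. In Usp18 Con A + MSC 6 h overlapped with Con A 12 h, and Con A 12 h with Con A + MSC 12 h. In Herc6 Con A + MSC 6 h overlapped with Con A + MSC 12 h, and that with Con A 12 h. Trim25 was highest in Con A 6 h, and the other 3 groups overlapped. Uba7 was lowest in Con A + MSC 6 h, and the other 3 groups overlapped. Ube2l6 was also lowest there, and each of the other 3 groups overlapped with its neighbour.

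Divided by exon length from GENCODE M21 (GRCm38), the members spanned a wide range of abundance. In Con A 6 h Isg15 was highest at 773 ± 345 CPM per kb (SD, n = 3), followed by Usp18 at 148 ± 64.6, Ube2l6 at 83.6 ± 12.7, Trim25 at 22.6 ± 2.79, Herc6 at 19.1 ± 6.58 and Uba7 at 10.9 ± 2.57 CPM per kb. The ranges of Usp18 and Ube2l6 overlapped there, and those of Trim25 and Herc6. In Con A + MSC 6 h the means were 124 ± 31.5 for Isg15, 68.3 ± 0.726 for Ube2l6 and 30.2 ± 9.24 CPM per kb for Usp18, so the conjugating enzyme was then above the protease without overlap. At 12 h that order held in both groups, with Ube2l6 at 93.2 ± 16.1 and 103 ± 14.8 CPM per kb and Usp18 at 22.6 ± 6.39 and 16.9 ± 4.51 CPM per kb, without and with MSC. The E1 gene was the least abundant member at 6 h, and at 12 h Herc6 had the lowest mean, at 5.73 ± 1.22 and 6.28 ± 1.91 CPM per kb, overlapping with Uba7 (9.59 ± 1.16 CPM per kb) in the group with MSC. These lengths come from an older assembly than the authors' GRCm39, so the levels per kb are approximate.

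The balance between the members was also read within each library, as the counts of a member divided by those of Isg15, which does not depend on scaling between libraries. Such a ratio is not corrected for length and is compared only between groups. With MSC at 6 h, all 5 ratios were higher than without and no groups overlapped. All 5 share Isg15 as denominator, the member that fell most (log2 change -2.64, against a median of -0.00637 over all genes). A gene that changed less than Isg15 gives a higher ratio, so these are not 5 separate results. The share of all genes with a higher ratio without overlap was not computed. For Ube2l6 the ratio was 0.468, 0.234 and 0.262 in Con A 6 h and 1.21, 2.02 and 1.36 in Con A + MSC 6 h, a log2 difference of 2.28. That of Trim25 differed by 1.82, Herc6 by 1.64 and Uba7 by 1.40. Usp18 kept closest to Isg15, at 0.775, 0.722 and 0.655 without MSC and 0.956, 0.854 and 0.874 with it, a log2 difference of 0.32. Each of these 5 differences has an exact two-sided permutation p of 0.1, the smallest that 3 against 3 can give, and 0.118 after Benjamini-Hochberg adjustment over 20 ratios and comparisons, so none can pass 0.05.

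At 12 h the ratios to Isg15 were again higher with MSC for Ube2l6 (log2 difference 0.95), Herc6 (0.90), Uba7 (0.66) and Trim25 (0.66), each without overlap and with an exact permutation p of 0.1. Isg15 itself changed by -0.83 there and these members by -0.14 to 0.15, none of which passed. The ratios therefore largely repeat the Isg15 difference. For Usp18 the difference of 0.37 came with overlapping groups (exact permutation p = 0.2). Between the times the protease moved away from its modifier. The ratio of Usp18 to Isg15 was 0.233, 0.257 and 0.212 in Con A 12 h and 0.254, 0.319 and 0.339 in Con A + MSC 12 h, which is 1.62 lower on the log2 scale than at 6 h without MSC and 1.57 lower with MSC. Herc6 was lower against Isg15 at 12 h too, with log2 differences of -0.67 without MSC and -1.41 with MSC, and Uba7 was higher, by 1.00 and 0.26. These Usp18, Herc6 and Uba7 ratios did not overlap between the times (exact permutation p = 0.1 each). The share of all genes with ratios that do not overlap was not computed for these comparisons either. In CPM, 54.8% of all genes without MSC and 58.6% with MSC did not overlap between the times. For MSC against no MSC at 12 h it was 26.4%, so a lack of overlap is common here. For Trim25 the difference between the times was 0.37 without MSC, with overlapping groups (exact permutation p = 0.4), and -0.79 with MSC, without overlap (0.1). For Ube2l6 it was 1.19 without MSC and, with overlapping groups, -0.15 with MSC (exact permutation p = 0.8). Without Con A 12 h replicate 1 the 10 ratio differences that use its group kept their direction, with Trim25 between the times at 0.17.

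**Figure D3:**
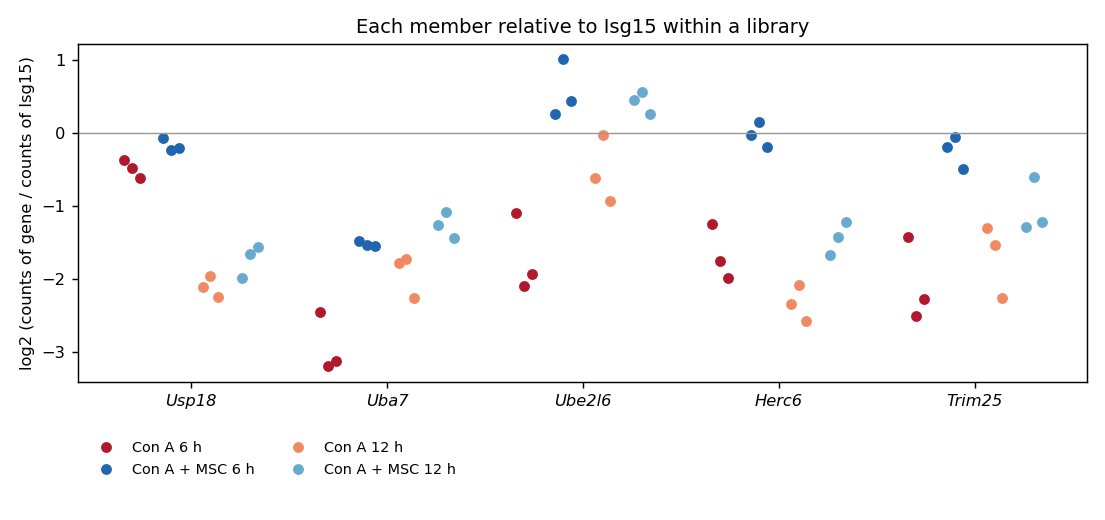
Log2 ratio of each member's counts to those of Isg15 in the same library, by group; each point is 1 library and 0 means equal counts. All 5 members sit higher in Con A + MSC 6 h than in Con A 6 h, and Usp18 sits lower at 12 h than at 6 h with and without MSC.

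Other interferon-stimulated genes gave the setting at 6 h. Of a list of 30, 28 were in the tables and tested, and 1 fell and none rose with MSC at 6 h, with a median change of -1.86 against -0.00637 over all genes and -1.06 over the 6 members. The gene that fell was Dhx58, which encodes the RNA sensor LGP2 (-2.45 ± 0.40, edgeR adjusted p = 0.0438). The next by p were Ddx58, which encodes RIG-I, the target of TRIM25 (-1.79 ± 0.31, 0.0511), the nucleotide kinase gene Cmpk2 (-4.06 ± 0.72, 0.053) and Oasl1 (-2.31 ± 0.41, 0.053). The count on this list ran from 0 to 19 when single libraries were left out. DESeq2 passed 22 of these 28, all lower, against 2.15% of all genes with that tool, and 27 had an unadjusted edgeR p below 0.05. Of all 14275 genes at least 1520 and fewer than 1579 had such an unadjusted p at 6 h, which is the background for the lists below as well. Of the 7 genes of the type I interferon receptor, its kinases and ISGF3, 0 passed at 6 h in edgeR and 0 in DESeq2, and 2 had an unadjusted p below 0.05, with a median change of -0.11. Irf9 had -0.63 ± 0.19 (edgeR adjusted p = 0.221) and Stat2 -0.47 ± 0.17 (0.325). Of 20 genes of the interferon gamma response 0 passed in either tool and 3 had an unadjusted p below 0.05, with a median of -0.16.

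The related enzymes that serve ubiquitin and its other relatives did not share the members' medians at 6 h. The medians were 0.12 over 9 other E1 genes, -0.07 over 14 other E2 genes, -0.05 over 11 other modifiers, -0.02 over 10 other HERC and TRIM ligases with Arih1, and 0.05 over the 5 tested of 6 other proteases with reported ISG15 activity. No gene of these lists passed in edgeR. At an unadjusted p below 0.05 there were 0, 0, 2, 4 and 0 in that order, and DESeq2 passed 1, among the modifiers. Ube2e1 had the smallest p among the E2 genes (-0.69 ± 0.42, edgeR adjusted p = 0.609) and Trim56 among the ligases (-0.78 ± 0.23, 0.196).

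At 12 h with MSC the interferon-stimulated list had no gene past the threshold in edgeR, 2 with an unadjusted p below 0.05, 1 with DESeq2 and a median of -0.10, and 1 passed without Con A 12 h replicate 1. In the interferon gamma list 1 of 20 rose, Ciita, which switches on MHC class II transcription (2.22 ± 0.39, edgeR adjusted p = 0.0151). In that list 8 of 20 had an unadjusted p below 0.05, DESeq2 passed 7, all higher, and the median was 0.58, with 16 of 20 above 0. Of all genes 22.0% had such an unadjusted edgeR p at 12 h and 4.08% passed in edgeR, the background for every list in this paragraph. The number of all genes that passed with DESeq2 at 12 h is given in the closing section. The ubiquitin-like modifier Ubd, also known as FAT10, had 1.33 ± 0.36 (edgeR adjusted p = 0.0614). No gene passed in edgeR in the receptor list or the 5 lists of relatives, which had 2, 2, 2, 3, 2 and 0 genes with an unadjusted p below 0.05. DESeq2 passed 1 of the receptor list and 2 of the modifiers. Of the interferons themselves only Ifng was tested, at 4.09 ± 1.87 CPM (SD, n = 3) without and 2.45 ± 0.931 CPM with MSC at 6 h, and at 0.615 ± 0.430 and 1.39 ± 0.689 CPM at 12 h. Ifnb1 had 2 counts in each Con A 6 h library and 0 in each Con A + MSC 6 h library, too few for a comparison. Ifna1, Ifna2, Ifna5, Ifnl2 and Ifnl3 had 0 counts in all 12 libraries.

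Between the times without MSC, 23 of the 28 interferon-stimulated genes fell (22 without Con A 12 h replicate 1) and none rose, with a median of -1.68, against 24.8% of all genes falling. They were led by Samhd1, a nucleotide hydrolase (-2.89 ± 0.29, edgeR adjusted p = 1.67e-05), and Trim30a (-2.40 ± 0.27, 3.61e-05). In the interferon gamma list 12 of 20 fell and 2 rose, and Ifng fell by 2.75 ± 0.59 (edgeR adjusted p = 0.00218). The lists of relatives split in direction: 2 of 9 E1 genes rose and 2 fell, 2 of 14 E2 genes rose and 5 fell, 3 of 11 modifiers rose and 2 fell, 3 of 10 ligases rose and 3 fell, and 1 of 5 proteases rose and 2 fell. Arih1, a ligase that works with UBE2L3, fell by 1.09 ± 0.17 (edgeR adjusted p = 0.000304).

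With MSC between the times, 3 of the 28 interferon-stimulated genes rose and 6 fell, with a median of 0.03. Over all genes 20.6% rose and 20.2% fell, so these counts are near or below the background. By total-count scaling 10 rose and 2 fell, against 40.6% and 8.6% of all genes. Samhd1 fell by 1.72 ± 0.28 (edgeR adjusted p = 0.000496), and Bst2, which encodes the virus-tethering protein tetherin, rose by 0.89 ± 0.26 (0.015). Of the 7 receptor and ISGF3 genes 3 rose, among them Stat2 (0.50 ± 0.17, edgeR adjusted p = 0.0326), and Jak1 fell (-1.02 ± 0.16, 0.000458). In the interferon gamma list 4 rose and 11 fell. Among the relatives 1 of 9 E1 genes rose and none fell, 1 of 14 E2 genes rose and 4 fell, 1 of 11 modifiers rose and 1 fell, 3 of 10 ligases rose and 2 fell, and 1 of 5 proteases rose and 3 fell.

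**Figure D4:**
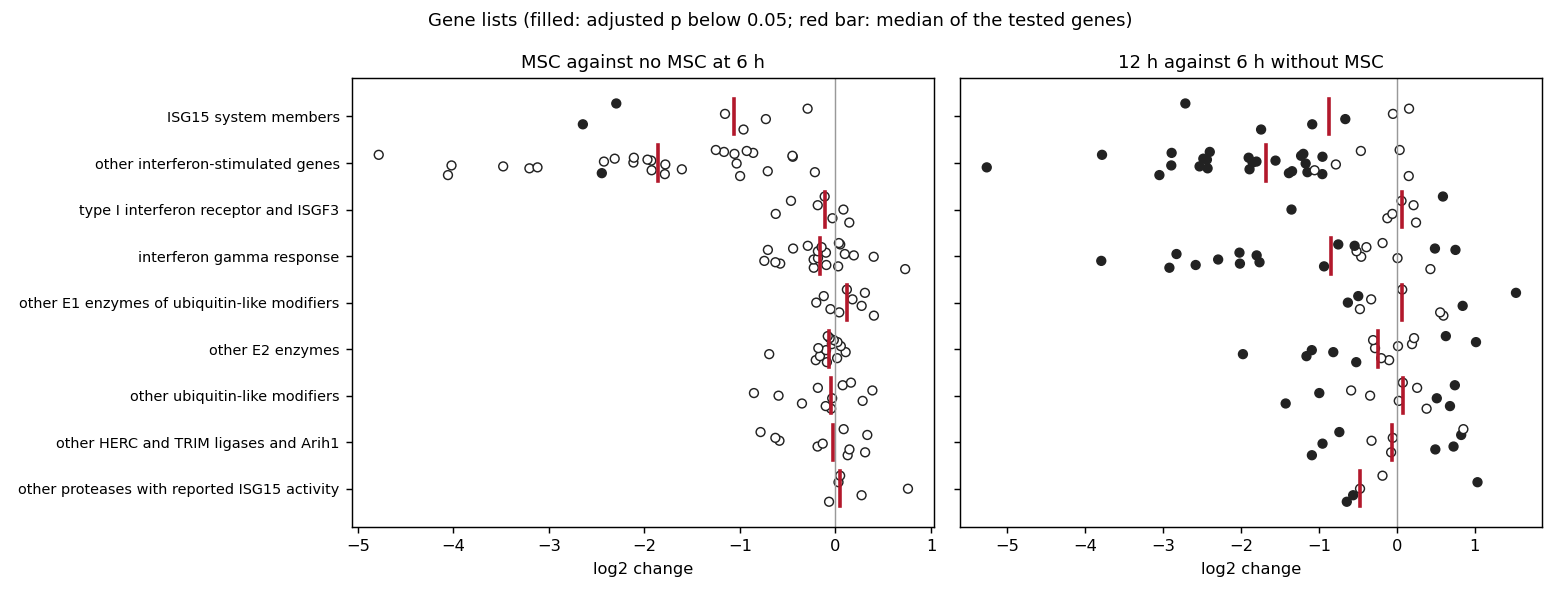
Log2 change of each tested gene by list at 6 h (MSC against no MSC) and between the times without MSC; filled points have an edgeR adjusted p below 0.05 and red bars are list medians. The members and the other interferon-stimulated genes have medians of -1.06 and -1.86 at 6 h, and the lists of related enzymes have medians near 0.

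Over all 12 libraries, the genes whose log2 CPM followed the mean of the 6 members most closely were Ifit3b (Pearson r = 0.987), Cmpk2 (0.979), Rsad2 (0.976), Ifit3 (0.975) and Slfn9 (0.962). With the group means subtracted they were Oasl1 (0.982), Znfx1 (0.977), Sh2d3c (0.972), Ifi44 (0.963) and Dtx3l (0.962). For single members the closest gene was Tor3a for Isg15 (0.982), Znfx1 for Usp18 (0.996), Il3ra for Uba7 (0.940), Trmt1l for Ube2l6 (0.929), Mlkl for Herc6 (0.977) and Ifih1 for Trim25 (0.929). The 12 libraries fall into 4 groups and share their scaling, so these values rank genes and carry no p.

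Cell-type markers moved with some of these results, and their part in them was not tested. The summed level of 7 plasmacytoid dendritic cell markers was 180 to 341 CPM in Con A 6 h and 111 to 131 CPM in Con A + MSC 6 h. Without Bst2, which is itself interferon-induced, it was 21.3 to 35.6 and 11.0 to 18.8 CPM, most of it from Tcf4 (19.7 ± 2.74 and 12.2 ± 3.03 CPM) and Ly6d (9.47 ± 5.76 and 2.30 ± 1.11 CPM), which other cell types express as well. The more specific Siglech was at 0.159 ± 0.183 and 0.189 ± 0.124 CPM, and Siglech, Klk1 or Cox6a2 was at 0 in 8 of the 12 libraries. Of the markers of the other cell types named here, Cd3e and Mpo were each at 0 in 1 Con A 6 h library and Vsig4 in 1 Con A 12 h library. The 7 T and NK cell markers in the tables overlapped at 6 h (26.3 to 51.7 against 16.0 to 62.0 CPM), as did the 8 Kupffer cell markers (33.8 to 78.1 against 21.8 to 79.7 CPM) and the 7 neutrophil markers (92.2 to 144 against 35.8 to 129 CPM) and the 7 sinusoidal endothelial markers (73.6 to 114 against 75.4 to 119 CPM). Beside the plasmacytoid dendritic cell sums, those of 5 B cell markers (2.21 to 3.94 against 1.41 to 1.99 CPM) and 7 stellate cell markers (161 to 172 against 148 to 153 CPM) did not overlap at 6 h. Nor did those of the 9 hepatocyte markers, given below, which were lower with MSC. In Con A 12 h the same sums were 5.87 to 16.1 CPM for T and NK cells, 7.84 to 23.5 CPM for Kupffer cells and 21.4 to 36.5 CPM for neutrophils, and in Con A + MSC 12 h they were 14.5 to 20.8, 46.4 to 82.9 and 24.3 to 32.8 CPM. Endothelial and stellate markers were at 33.6 to 45.0 and 48.3 to 66.5 CPM in Con A 12 h, below all the 6 h libraries, and at 82.7 to 110.4 and 102 to 182 CPM in Con A + MSC 12 h. The 9 hepatocyte markers summed to 100457 to 124392 CPM without MSC and 94690 to 97795 CPM with MSC at 6 h, and to 43110 to 59802 and 49598 to 61642 CPM at 12 h.

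In GENCODE M21 (GRCm38) the members lie on 5 chromosomes. Isg15 is at chr4:156199424-156200818 on the minus strand, with 756 exon bases in 2 blocks, so it is by far the shortest. Usp18 (chr6:121245906-121270917) and Herc6 (chr6:57581000-57664632) share chromosome 6, and Uba7 (chr9:107975505-107984060), Ube2l6 (chr2:84798828-84810335) and Trim25 (chr11:88999376-89020293) lie apart, all on the plus strand. Some reads may be shared with other loci, since how reads were counted, and whether by strand, is not stated in these sources. Herc6 shares 13.7% of its exon bases with Gm45193 on the same strand, Usp18 shares 4.44% with Gm44148 on the opposite strand, and Uba7 shares 3.48% with Gm20661, which had at most 10 counts in any library. Isg15 has a processed pseudogene, AC151275.1, that matches 482 of its bases at 95.2% identity. Part of Ube2l6 matches D10Wsu102e at 90.6% over 498 bases and shorter stretches of other loci, so its small change is the least certain in this respect.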

How the data were processed

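The deposited tables, 1 per group with 3 libraries each, hold whole-number counts per gene, read as raw counts since every value is a whole number. The authors' tools, per the submitters' processing notes, include StringTie 2.1.2, HISAT2 2.0.4 and Bowtie2 2.2.5, and the build named is GRCm39. Counting program, annotation and strand setting: not given in the sources used here. Per the labels' protocols, RNA was captured with oligo(dT) beads from liver tissue. Samples were grouped by the labels alone. No entry lacked a name (0) and no column belonged to another sample (0).

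One model held all 12 libraries and 1 mean per group (edgeR 4.0.16 in R 4.3.3, glmQLFit and glmQLFTest, two-sided, TMM factors, filterByExpr by group). This left 14275 entries tested and 9299 not tested, with 8 residual degrees of freedom. Benjamini-Hochberg adjustment covered all 14275, and calls were made below 0.05 whatever the fold. Each SE was derived from the log2 change and its F statistic. CPM for correlations were logged with a prior count of 2. Ratios to Isg15 were compared with two-sided exact permutation tests over libraries. The edgeR fit was first run on simulated counts in which libraries vary independently, and the outcome is not reported here.

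The members and lists were chosen with earlier results of these data known. All 6 members are named in every comparison; of each other list at most 4 genes with the smallest p in the comparison described; and the 5 genes most alike to the members' mean and the single most alike gene per member. The interferon genes with too few counts to test were named outside this rule, after their values were seen. A few genes picked by this rule are not reported here. Usp13 of the proteases also had too few counts to test, and Mx1 and Mx2 of the interferon-stimulated list were not analysed here. Markers are read as RNA levels, with no test.

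Alternatives were DESeq2 1.42.0 (Wald test, and its size factors), scaling by total count, no filter on low counts, the replicate number as a block, the mitochondrial share as a covariate, a fit of only the groups compared, another prior count, and each library left out in turn. Promoters came from RefSeq (GRCm38.p6) and gene positions and lengths from GENCODE M21 (GRCm38); no coordinate was converted. Near-copies were transcripts of other genes matching at least 200 bases at 90% identity or more.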

Additional observations from a re-analysis of the deposited data

How the results depend on the processing

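Of 420 log2 changes of members under alternative settings, 372 kept their direction and their side of the threshold, 23 lost the call, 15 gained it and 10 reversed, and of 140 ratios to Isg15 1 reversed; the causes were not tested except where fewer samples entered. Members passing for MSC at 6 h numbered 2 in the reported fit, 5 with DESeq2, 0 with only the groups compared, and 0 to 3 with a library left out (3 without Con A 6 h replicate 1 and 0 without any of the other 5). Over those 6 fits the edgeR adjusted p ran from 0.0035 to 0.178 for Isg15 and from 0.00609 to 0.23 for Usp18. For 12 h against 6 h without MSC the 4 became 2 to 4 with a library left out (2 without Con A 12 h replicate 2), and with only the groups compared Isg15 lost its call (edgeR adjusted p = 0.0529). With MSC the 2 became 4 with only the groups compared and 1 to 4 with a library left out (4 without Con A + MSC 12 h replicate 3, where Usp18 and Herc6 fell). For the difference of the MSC change the 0 became 2 with total-count scaling and 2 with DESeq2. By total counts 1.48% of all genes passed there, against 0.126% in the reported fit, and the median of all genes was 0.283. Shares of all genes in the other refits of this paragraph are not given beside the counts. At 12 h the count stayed 0 under every setting run.

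Total-count scaling reversed the non-passing changes of Uba7 (0.14) and Trim25 (0.11) for MSC at 12 h, of Uba7 between the times without MSC (0.18) and of Trim25 between the times with MSC (0.48). It moved the split of calls between the times with MSC from 20.6% higher and 20.2% lower to 40.6% and 8.6%, that without MSC from 24.4% and 24.8% to 30.1% and 16.5%, and at 12 h from 2.29% and 1.79% to 5.14% and 0.665%. The mitochondrial share as covariate gave Ube2l6 -0.016 between the times without MSC. With a library left out, the change of Herc6 at 12 h ran from -0.12 to 0.31, that of Uba7 between the times without MSC from -0.17 to 0.16, that of Trim25 with MSC from -0.19 to 0.16, and the log2 ratio of Ube2l6 to Isg15 with MSC from -0.30 to 0.068. Genes passing at 6 h numbered 14 in all, 307 with DESeq2 and 2 with only the groups compared; at 12 h they numbered 582, 1477 and 135.

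Same-numbered libraries did not deviate together over all genes (1 of 18 pairs over 0.1, r from -0.226 to 0.13). The labels do not say that the numbers pair libraries, and a pairing that touches only part of the genes was not tested. With the replicate block 0 members passed at 6 h (edgeR adjusted p = 0.0682 for Isg15 and 0.0953 for Usp18), and the block changed no other member's call in the 5 comparisons. It passed 4 genes in all at 6 h and 313 at 12 h. Counting depth limits none of the members' values.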
